A study of Mus musculus with 16 samples.

Results

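The estrogen receptors and a small set of estrogen targets were followed through the RNA and the m6A measurements of mouse bone after ovariectomy or a sham operation. The set held 9 genes, Esr1, Esr2, Gper1, Pgr, Greb1, Gata3, Igfbp4, Nrip1 and Cav1, taken by gene symbol from the 25239 genes of the RNA table, and the 8 m6A peaks that bear one of these names among 13083 peaks. Both tables were deposited by the authors and hold comparisons between the arms, with no value for a single library, so no value per sample can be shown. The arms were wild type mice with a sham operation (libraries titled NC) and wild type mice with ovariectomy (titled OVX), each with 4 input and 4 immunoprecipitated (IP) libraries of bone. An input library holds the RNA before, and an IP library the fragments pulled down with, an antibody to N6-methyladenosine (m6A). The treatment field reads ovariectomy for the 4 IP libraries titled NC as well, and the title was used. The labels used here give no strain, age, bone or time after surgery. They also do not tie libraries to single animals, so the spread behind each p-value may be technical.

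Estrogen acts mainly through Esr1 (estrogen receptor alpha) and Esr2 (estrogen receptor beta), nuclear receptors that bind DNA at estrogen response elements and recruit coactivators or corepressors, and a rapid response at membranes has been assigned to the G protein-coupled receptor Gper1. In bone, estrogen restrains resorption and its loss leads to net bone loss, with Esr1 as the main receptor in bone cells. Pgr, the progesterone receptor, and Greb1, a growth regulator that binds Esr1, are classical targets in breast and uterus. In breast, Gata3 is a partner transcription factor of Esr1. Igfbp4 binds insulin-like growth factors in the extracellular space, Nrip1 (also called RIP140) is an estrogen-induced corepressor of nuclear receptors, and Cav1 is the scaffold protein of caveolae, which can hold estrogen receptors at the plasma membrane.

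The promoters of the 3 genes whose RNA passed the threshold below are shown with the 5-base core of an estrogen response element in capitals, GGTCA or its reverse complement TGACC. Each is the 250 bases before an annotated start in RefSeq (GRCm38.p6), 5′ to 3′ on the strand of the gene. Greb1 has 2 annotated starts.
Greb1, chr12:16800887-16801136, minus strand: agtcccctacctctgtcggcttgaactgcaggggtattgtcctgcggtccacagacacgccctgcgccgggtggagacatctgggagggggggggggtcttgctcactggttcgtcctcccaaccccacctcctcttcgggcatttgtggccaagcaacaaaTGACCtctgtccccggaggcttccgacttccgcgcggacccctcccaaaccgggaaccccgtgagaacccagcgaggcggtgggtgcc
Greb1, chr12:16757240-16757489, minus strand: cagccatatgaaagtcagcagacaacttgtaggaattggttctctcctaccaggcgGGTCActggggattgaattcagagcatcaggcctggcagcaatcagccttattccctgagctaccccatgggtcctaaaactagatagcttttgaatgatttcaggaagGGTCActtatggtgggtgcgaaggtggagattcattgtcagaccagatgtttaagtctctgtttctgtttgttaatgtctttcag
Gata3, chr2:9878601-9878850, minus strand: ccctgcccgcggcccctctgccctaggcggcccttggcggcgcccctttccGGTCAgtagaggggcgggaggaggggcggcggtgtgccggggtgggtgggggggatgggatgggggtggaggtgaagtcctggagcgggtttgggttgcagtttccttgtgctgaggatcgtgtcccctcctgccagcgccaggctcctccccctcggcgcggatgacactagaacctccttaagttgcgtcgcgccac
Igfbp4, chr11:99040994-99041243, plus strand: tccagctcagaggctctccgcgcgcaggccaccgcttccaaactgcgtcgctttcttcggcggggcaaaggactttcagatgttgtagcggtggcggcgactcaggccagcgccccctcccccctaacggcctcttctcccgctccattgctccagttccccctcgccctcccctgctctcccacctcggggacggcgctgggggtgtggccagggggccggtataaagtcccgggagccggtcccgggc
The upstream Greb1 start, listed first, had 1 core, at 88 to 84 bases before the start, and the downstream one had 2, of which the nearer lay 85 to 81 bases before it. Gata3 had 1 core, 199 to 195 bases before its start, and Igfbp4 had none. All 9 genes matched the RefSeq table, with 13 promoters, of which 6 in 5 genes (Greb1, Gata3, Cav1, Esr2 and Nrip1) held the core. The full palindrome, GGTCANNNTGACC, was in none of the 13. Among all 32851 promoters of this length, 35.2% held the core on either strand and 0.0639% the palindrome, so the core alone is a common string. These matches describe letters in a short window and show no binding.

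RNA of Greb1, Gata3 and Igfbp4 had called negative fold changes, and the receptors Esr1 and Gper1 were not called. In the authors' deposited table a gene is called at a Benjamini-Hochberg adjusted p under 0.05, and 3 of the 7 members with an adjusted p were called, all negative, where 12.2% of all 15396 tested genes were called, 6.11% negative and 6.07% positive. Of the 7, 5 were negative and 2 positive as deposited, where 53.3% of all tested genes were negative, and the median log2 fold change was -0.42 beside -0.02 over all tested genes. The members were chosen with these results known, so their count is a description. Neither table states which arm is the numerator, so a sign cannot be read as higher or lower after ovariectomy. The plot of fold changes by gene shows the 3 called genes with intervals below 0, and the others with intervals that include it.

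**Figure D1:**
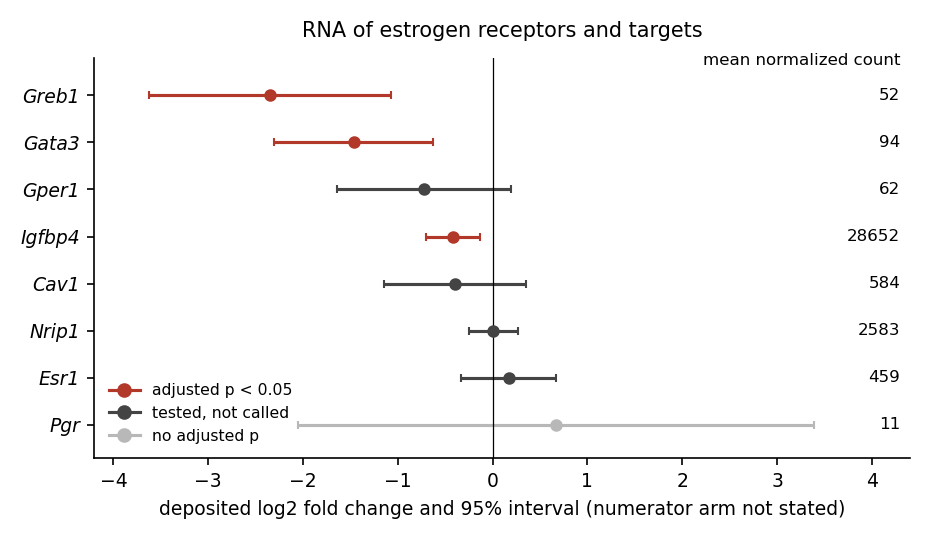
Deposited log2 fold change (horizontal axis) of the 8 members with a fold change, with 95% intervals from the deposited standard errors. The mean normalized count over libraries stands at the right, and Greb1, Gata3 and Igfbp4 (red) are the called genes.

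Among the receptors, Esr1 had a mean of 459 normalized counts over the libraries and a log2 fold change of 0.17 ± 0.25 (SE; adjusted p = 0.723) in the authors' deposited table. Its 95% interval ran from -0.33 to 0.67, so a change in Esr1 RNA of up to 1.59-fold in the positive direction lies inside the interval. Esr2 was listed at 0 in the authors' deposited table, and a total of 0 allows up to 3 counts over the 8 input libraries, a mean of about 0.375. Esr2 RNA was therefore not detectable at this depth, and no fold can be given. Gper1 had a mean of 62.0 normalized counts and -0.72 ± 0.47 (adjusted p = 0.332) in the authors' deposited table. The Gper1 interval, -1.64 to 0.19, leaves room for a change of 3.12-fold in the negative direction and for none. The Gper1 gene overlaps 3110082I17Rik, a gene that was itself called in the authors' deposited table (-0.33 ± 0.12, adjusted p = 0.0384, mean 1020). The kit is stranded per the labels, but the counting is not stated to have used the strand, so reads of these genes may be shared.

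Greb1 had the largest fold change of the members. Its mean was 52.1 normalized counts and its log2 fold change -2.35 ± 0.65 (adjusted p = 0.00627) in the authors' deposited table, 5.09-fold with a 95% interval of 2.10 to 12.3. Read as a ratio of arm means, that mean and fold correspond to about 17.1 normalized counts in the numerator arm and 87.2 in the other. The Greb1 interval lies below 0 throughout and covers a wide range of sizes. Its SE was larger than that of 89.9% of the 1084 genes with a mean within 1.5-fold of its own (median SE 0.40), of which 5.46% of those tested were called.

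Gata3 had a mean of 94.3 normalized counts and -1.46 ± 0.43 (adjusted p = 0.0106) in the authors' deposited table, 2.76-fold with an interval of 1.54 to 4.93. That corresponds to about 50.2 normalized counts in the numerator arm and 138 in the other. The Gata3 SE exceeded that of 78.4% of the 1224 genes of like mean, of which 9.35% of those tested were called. Besides its role beside Esr1, Gata3 directs the development of T cells and innate lymphoid cells, whose markers were examined next to it. Of 14 such markers, 2 were called in the authors' deposited table, both positive, Il7r (0.89 ± 0.18) and Lck (0.39 ± 0.13), and the list was split into 7 positive and 7 negative (median -0.07), a called share near the 12.2% of all tested genes. All 14 had an adjusted p, none was at 0, and their means summed to 8383 normalized counts. The lncRNA genes 4930412O13Rik and 9230102O04Rik overlap the annotated Gata3 gene, at means of 3.77 and 1.07 normalized counts in the authors' deposited table, too low for an adjusted p.

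Igfbp4 was the most abundant member by count, above 99.0% of all genes with a mean over 0, and had the smallest called change. Its mean was 28652 normalized counts and its log2 fold change -0.42 ± 0.15 (adjusted p = 0.0379) in the authors' deposited table, 1.34-fold with an interval of 1.10 to 1.63. That corresponds to about 24499 normalized counts in the numerator arm and 32804 in the other. At 248 genes of like mean the median SE was 0.11, and 12.5% were called. Counts are not corrected for transcript length, so the order of the members' means is not an order of RNA molecules. Pgr had a mean of 11.0 normalized counts, under the lowest mean with an adjusted p (12.4), and its 0.67 ± 1.39 (unadjusted p = 0.63) in the authors' deposited table spans an interval of -2.05 to 3.39. The Pgr value thus fixes neither sign nor size.

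**Figure D2:**
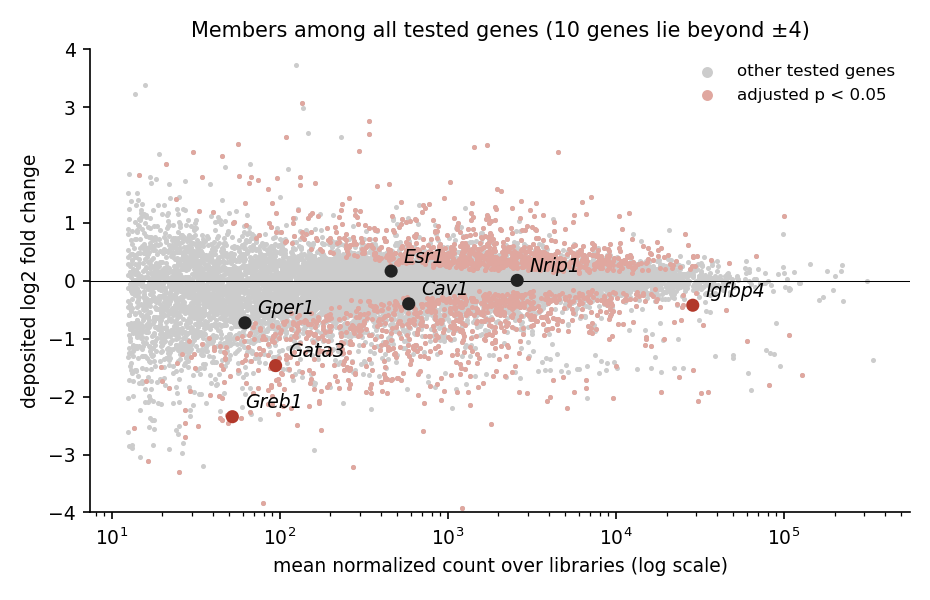
Deposited log2 fold change against mean normalized count (log scale) for the 15396 tested genes, with the 7 tested members named (red: called). Greb1 and Gata3 lie at the negative edge among genes of low count, and Igfbp4 at the far right close to 0; 10 genes lie beyond the vertical axis.

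The corepressor Nrip1 had a mean of 2583 normalized counts and a fold change near 0, 0.01 ± 0.13 (adjusted p = 0.979) in the authors' deposited table. Its interval, -0.25 to 0.26, is the narrowest of the members, so a change in Nrip1 RNA of over 1.20-fold in either direction as deposited lies outside it. Cav1 had a mean of 584 normalized counts and -0.40 ± 0.38 (adjusted p = 0.547) in the authors' deposited table, with an interval of -1.14 to 0.35. Cav1 and Igfbp4 had almost the same fold change, and the SE of Cav1 was the wider. The Cav1 SE exceeded that of 92.7% of 2392 genes of like mean (median SE 0.16).

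Markers of cell types rich in caveolae and of other bone-adjacent tissue carried negative signs beside these genes. In bulk bone, a difference in the number of cells of a type and one in RNA per cell cannot be told apart. The counts below are to be read against all tested genes, of which 53.3% were negative and 12.2% called. Smooth muscle and pericyte markers were negative in 8 of 8 and called in 4 (median -1.30), with the smallest p for Myh11 at -1.47 ± 0.39 and Acta2 at -1.25 ± 0.35 in the authors' deposited table. Endothelial markers were negative in 12 of 12 and called in 1, Eng with -0.33 ± 0.12, and adipocyte markers were negative in 11 of 12 and called in 1, Lpl with -0.997 ± 0.248, in the authors' deposited table. The called share of these 2 lists, 8.33% each, lay below that of all tested genes. Marrow stroma markers were negative in 12 of 12 and called in 3 (median -0.47), among them Foxc1 with -0.79 ± 0.18, in the authors' deposited table. Skeletal muscle markers, 2.12% of all mean counts, were negative in 12 of 12 and called in 3 (median -1.49), with the smallest p for Myh1 at -1.62 ± 0.52 in the authors' deposited table. All 8 nerve and glia markers were negative and 2 called, including the myelin gene Prx at -1.30 ± 0.44 in the authors' deposited table. Osteoblast markers were negative in 8 of 12 (median -0.25), and the 2 called were positive, Col1a1 (1.12 ± 0.32) and Bglap (1.08 ± 0.34), in the authors' deposited table. B cell markers were positive in 12 of 12 and called in 10, with the smallest p for Dntt (2.34 ± 0.24) in the authors' deposited table. Of these lists no marker was at 0, and summed levels per arm were not analysed here. All 12 osteoblast markers, which define the labelled tissue, were tested. Of 8 epithelium and skin markers, 3 were listed at 0, 4 were tested and none was called in the authors' deposited table. The part of these cell types in the values of Greb1, Gata3, Igfbp4 and Cav1 was not tested.

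Of the 9 members, 3 carried m6A peaks, Nrip1 with 6 and Esr1 and Cav1 with 1 each, and none of the 3 called genes did. Of all genes with a mean over 0, 35.9% carried a peak. Among genes of like mean the share was 9.04% for Greb1, 14.5% for Gata3 and 73.4% for Igfbp4. m6A is read from peaks, stretches where the IP library is enriched over input. Peak positions are those of the authors' deposited table with starts counted from 1. The submitters' processing notes name the rat build rn6, while 99.8% of the peaks with a known symbol lay inside the gene of that name in GRCm38.p6, the member peaks among them. The peak score is the authors' own.

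The Esr1 peak joined 3 exon blocks of 94, 117 and 39 bases on the plus strand of chromosome 10 (4746714 to 4746807, 4783857 to 4783973 and 4856858 to 4856896), 250 exonic bases in all. It had an enrichment of 3.14 over input, above 97.2% of all peaks in the authors' deposited table, whose median was 1.82. Of all peaks, 17.6% spanned at least 3 blocks. The Cav1 peak was a single block of 100 bases on chromosome 6 (17339698 to 17339797, plus strand) with an enrichment of 1.60 in the authors' deposited table, above 30.3% of peaks. Esr1 thus carried the highest enrichment of the 8 and Cav1 the second lowest.

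The 6 Nrip1 peaks were single blocks of 100 to 300 bases on the minus strand of chromosome 16, and covered 1104 of the 3598 bases between 76291101 and 76294698. Of the 6847 genes with a peak, 187 (2.73%) had at least 6, a share not matched for RNA level. Among the pathway genes described below, Kmt2c had 9, Lcor and Ep300 8 each and Kmt2d 7. The other peak carriers there had at most 5. The highest Nrip1 enrichment was 2.63 at 76291401 to 76291700 and the lowest 1.47 at 76294349 to 76294449 in the authors' deposited table. The other four were 1.86 (76291101 to 76291251), 2.19 (76292350 to 76292550), 2.16 (76293399 to 76293649) and 2.16 (76294599 to 76294698). Enrichment therefore varied along the gene, and 4 of the 6 reached 2, as 37.3% of all peaks did. Neighbouring Nrip1 peaks shared a deposited p against input in 3 pairs (log10 p of -10.9, -6.45 and -7.85), so these peaks may not be independent calls. Over all genes, 27.7% of neighbouring peaks of the same gene shared a p.

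**Figure D3:**
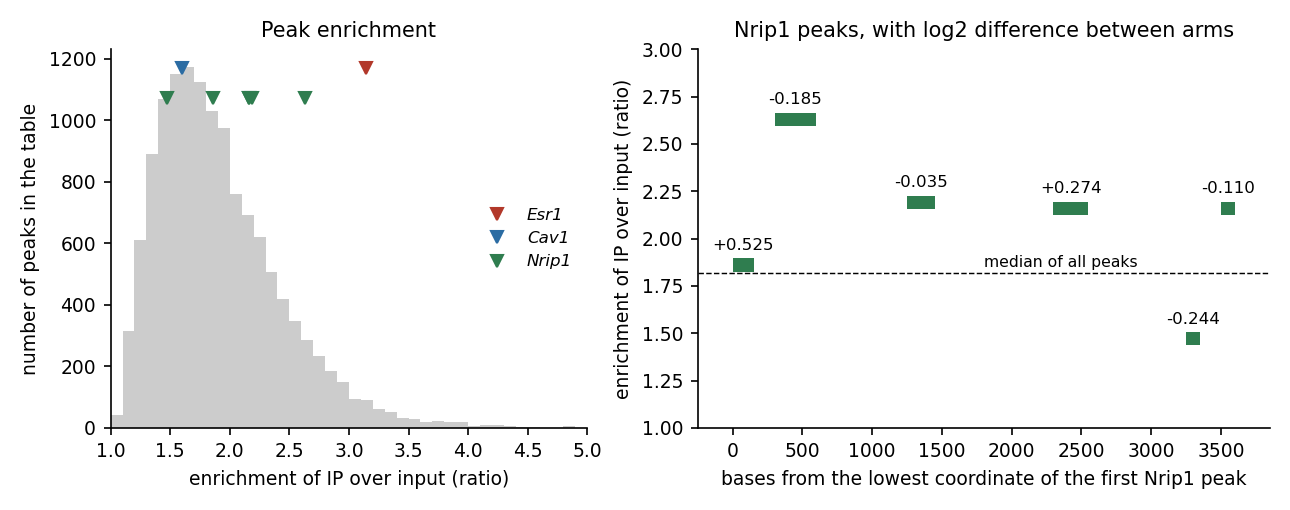
Left, enrichment of IP over input for all peaks (grey) with triangles for the peaks of Esr1, Cav1 and Nrip1; the axis ends at 5. Right, the 6 Nrip1 peaks by distance along the genome and enrichment, labelled with their log2 difference between the arms, which takes both signs.

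No member peak was called as different between the arms. At a deposited difference p under 0.05, 0 of the 8 peaks were called, where 4.92% of all 13083 peaks were, and 0 of the 8 reached a false discovery rate (FDR) under 0.05, as 0.0229% of all peaks did. The smallest p was 0.16, for the Nrip1 peak at 76293399, with a log2 difference of 0.27 in the authors' deposited table. Nrip1 differences ran from -0.24 to 0.53, 2 positive and 4 negative (mean 0.04 ± 0.30, SD over 6 peaks of 1 gene, which are not replicates). The largest, 0.53 at 76291101, had a p of 0.804 in the authors' deposited table, so its size is no guide to its support. Esr1 had -0.13 (p = 0.714) and Cav1 0.26 (p = 0.396) in the authors' deposited table. For comparison, called peaks had a median absolute difference of 0.31. No standard error of the m6A difference is in the table, so no interval can be given, and a p that misses the threshold does not show that methylation was alike in the arms.

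Whether a gene carried a peak went with its RNA level. Of genes with a mean over 0, 35.9% carried a peak, from 0.21% in the lowest to 73.6% in the highest of 10 classes of mean count. Igfbp4, in the highest class, had no peak, where 73.4% of the 248 genes of like mean had at least 1. Greb1, Gper1 and Pgr lay where 9.04%, 10.8% and 0.582% of genes of like mean carried a peak, and Gata3 where 14.5% did. For Esr1, Cav1 and Nrip1 the shares were 38.2%, 42.6% and 65.2%. Most genes of like mean thus had no peak beside Greb1, Gper1, Pgr and Gata3, and a minority beside Igfbp4. A peak named for 3110082I17Rik overlaps the Gper1 gene and was not counted for it.

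**Figure D4:**
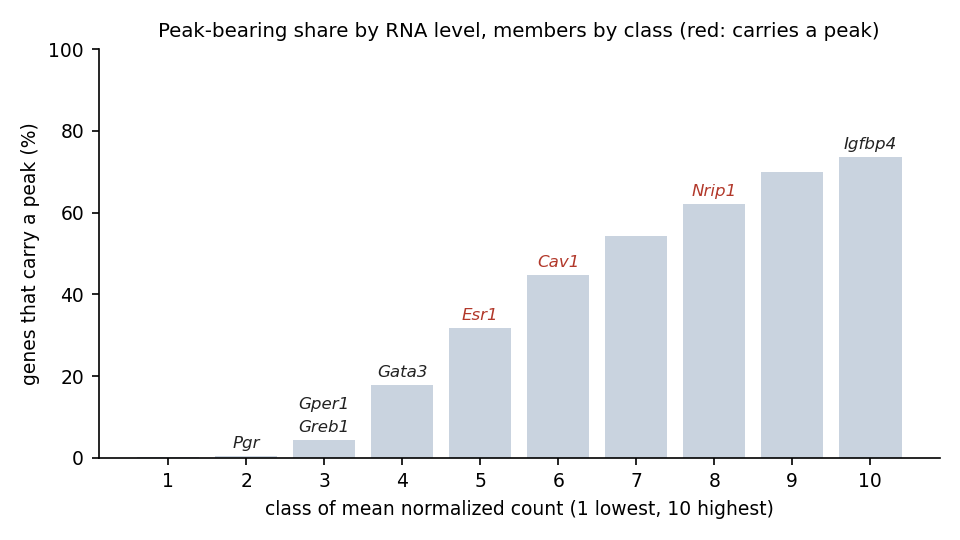
Share of genes with at least 1 m6A peak in 10 classes of mean normalized count, with the detected members named above their class (red: carries a peak). The share climbs from 0.21% to 73.6%, and Igfbp4 stands in the highest class without a peak.

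The wider estrogen pathway was described by 9 lists with 153 genes outside the set, of which 132 were tested. Of these, 19 (14.4%) were called in the authors' deposited table, 7 negative and 12 positive, against 12.2% of all tested genes. The share was near that of all genes, and calls are given here by role. Chaperones that hold steroid receptors in a hormone-binding state had 4 of 9 members called in the authors' deposited table, each of them positive (median 0.24). These were Stip1 (0.28 ± 0.06), Dnajb1 (0.34 ± 0.08), Fkbp4 (0.29 ± 0.08) and Ptges3 (0.23 ± 0.07). Chaperones serve many other proteins as well.

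Of 18 receptor coactivators 3 were called positive and 1 negative in the authors' deposited table (median 0.09). The histone methyltransferase Kmt2d stood at 0.44 ± 0.14, the steroid receptor coactivator Ncoa3 at 0.30 ± 0.10 and the RNA helicase Ddx17 at 0.22 ± 0.07. Ppargc1a, a coactivator of mitochondrial genes that is abundant in muscle, was the negative call at -1.25 ± 0.44 in the authors' deposited table. Corepressors had 3 calls among 13 tested, all positive (median 0.06), Safb (0.21 ± 0.07), Safb2 (0.25 ± 0.08) and Tbl1xr1 (0.18 ± 0.06) in the authors' deposited table. Safb and Safb2 are scaffold attachment factors that bind Esr1. Among 8 tested partner transcription factors only Sp1 was called, at 0.18 ± 0.07 in the authors' deposited table, where the list median was -0.24. Called shares of coactivators, corepressors and partner factors were 22.2%, 23.1% and 12.5%, where 12.2% of all tested genes were called.

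Further estrogen targets had 3 calls among 29 tested (10.3%), all negative, in the authors' deposited table, where 12.2% of all tested genes were called. Of the 29, 22 were negative (median -0.27), beside 53.3% of all tested genes. Cxcl12, a chemokine of marrow stroma, had -0.51 ± 0.13, Kcnmb1, a potassium channel subunit of smooth muscle, -1.42 ± 0.46, and Hoxa10, a homeobox factor, -0.73 ± 0.26 in the authors' deposited table. Their means were 44910, 24.4 and 164 normalized counts, in that order, so the Kcnmb1 value rests on few counts. Cxcl12 also stands among the stroma markers above. Among 18 genes of caveolae and membrane estrogen signalling only the muscle caveola protein Cavin4 was called, at -1.82 ± 0.48 in the authors' deposited table, and 13 of the 18 were negative (median -0.33), again beside 53.3% overall. Cavin4 had the same sign as the muscle markers above, whose part was not tested. Paralogs of the members had 2 negative calls among 16 tested, the mineralocorticoid receptor Nr3c2 (-0.98 ± 0.23) and Igfbp7 (-0.68 ± 0.20), in the authors' deposited table. Of 10 tested bone cytokines that respond to estrogen, Tgfb1 was called, at 0.41 ± 0.09 in the authors' deposited table. The called shares of the caveola, paralog and cytokine lists were 5.56%, 12.5% and 10%, near or below the 12.2% of all tested genes. Of 17 enzymes and carriers of estrogen synthesis and breakdown, 15 were in the RNA table, 4 of them at 0, and none of the 11 tested was called (median -0.11). Negative signs were also held by 10 of these 11, by 14 of the 16 paralogs and by 6 of the 8 partner factors. Fewer were negative among bone cytokines (6 of 10), coactivators (7 of 18), corepressors (6 of 13) and chaperones (2 of 9). A lean to negative signs was thus not particular to the further targets or the caveola list.

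**Figure D5:**
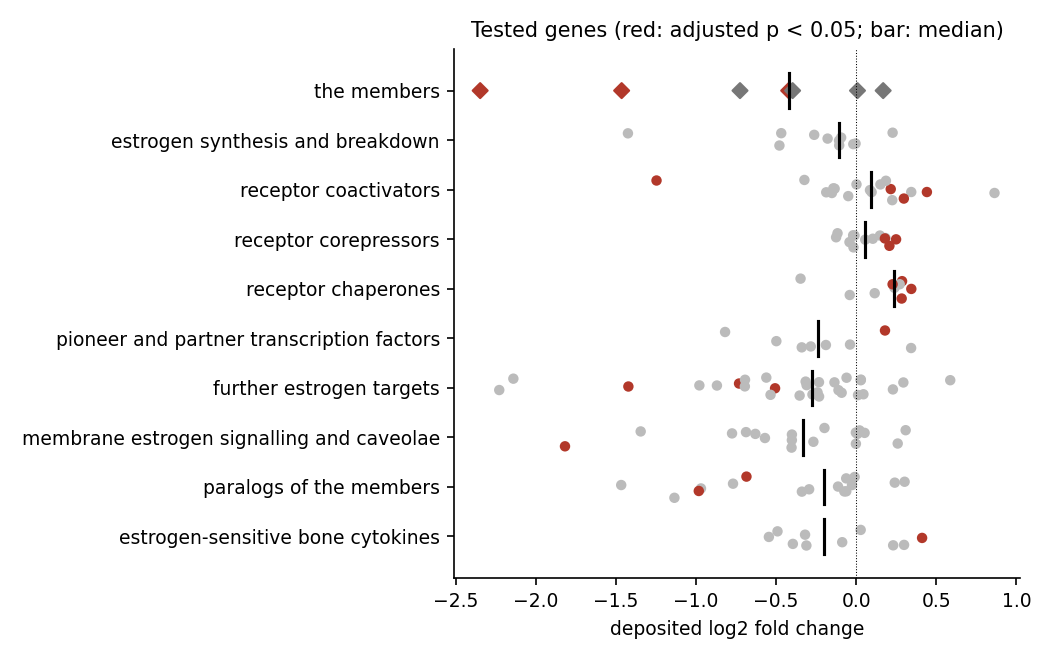
Deposited log2 fold change of each tested gene by list, with the members on top; red points are called and bars mark list medians. Called chaperones lie to the right of 0 (0.23 to 0.34) and called further targets to the left (-0.51 to -1.42).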

How the data were processed

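RNA and m6A were measured in 16 libraries of mouse bone, 4 input and 4 IP in each arm. HISAT2, StringTie, DESeq and the build rn6 stand in the submitters' processing notes, with no version or role. The sources used here do not name the peak caller or any pooling. Per the file headers, each gene has the authors' mean normalized count (a signal), log2 fold change, SE, Wald statistic (a score), p-value and adjusted p. For each peak they deposited, per the file headers, a p-value against input with log10 values of p and FDR, an enrichment ratio, and a log2 difference between the arms with log10 p and FDR as a score.

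No per-gene test was run here: calls use the authors' deposited p-values, adjusted over the whole table. The Wald statistic equalled fold change over SE in all 19049 genes with a fold change, and the Benjamini-Hochberg method over 15396 genes gave the deposited adjusted p. Intervals are fold change plus or minus the normal 95% quantile times the SE. Arm levels assume that the fold change is a ratio of arm means and that both arms hold 4 libraries. Library depth is not in the tables, whose mean counts bound the precision. Peak starts were counted from 0 as deposited, since width equalled block size in all 7831 single-block peaks, and 1 was added. Named genes are all members and, per list, the called genes with the smallest p, up to 4 (markers 2); some genes that this rule takes are left out. The members and lists were chosen with earlier results of these data known. The re-adjustment of p-values was tested on simulated data. Python 3.11.15, pandas 2.3.3, numpy 2.4.6, scipy 1.17.1 and matplotlib 3.10.9 were used.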

Additional observations from a re-analysis of the deposited data

How the results depend on the processing

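Of the member calls in RNA, 1 of 3 was left at an adjusted p under 0.01, that of Greb1, where 5.73% of all genes were called. Igfbp4 also lost its call when an absolute fold change of 1 or more (log2) was required. Re-adjustment without a filter on low counts, or over genes with a mean of at least 50, left 3 members called, with Igfbp4 at an adjusted p of 0.046 and 0.0345. Of all genes, 9.13% and 13.9% were called under these settings, in the same order. Pathway calls fell from 19 to 7 at an adjusted p under 0.01 and to 3 of 132 under that limit on size, which 2.55% of all genes passed. Centring on genes with a mean of at least 1000 shifted all fold changes by 0.02 and gave 6 negative members instead of 5, since Nrip1 changed sign. Of the 8 member peaks, 5 had an enrichment of at least 2, and 8 a log10 FDR of -5 or lower. By position, 9 peaks overlapped members' genes, the added one named for 3110082I17Rik. For the m6A difference, each further threshold tried was stricter than p under 0.05, which had already given 0 calls. Their 0 calls were thus fixed in advance and tell nothing about the processing. No paired analysis was possible because the tables hold no values per library, and for the same reason no replicate could be left out.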

Other observations

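The m6A peaks of the wider estrogen pathway were spread unevenly over the lists, whose genes also differ in RNA level. Of 151 listed pathway genes, 75 (49.7%) carried 170 peaks, where 27.1% of all 25239 genes carried a peak. Carriers were 11 of 15 corepressors, 11 of 18 coactivators and 9 of 9 chaperones, against 3 of 15 genes of estrogen synthesis and breakdown. In the highest of the 10 classes of mean count 73.6% of all genes carried a peak. The lists were not matched for RNA level. The highest numbers per gene, picked after the values were seen, were 9 in the coactivator Kmt2c and 8 each in the coactivator Ep300 and the corepressor Lcor. Enrichment of the Lcor peaks ran from 1.35 to 3.36 in the authors' deposited table. Of the 170 peaks, 8 (4.71%) had a difference p under 0.05, where 4.92% of all peaks did, and none had an FDR under 0.05 in the authors' deposited table. Among them were peaks in Safb (0.19), Hsp90ab1 (0.18), Fkbp5 (0.38) and Ep300 (0.20) with a positive log2 difference, and in Dnajb1 (-0.36), Kmt2c (-0.08) and Kmt2d (-0.80) with a negative one.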
